A study of Mus musculus with 12 samples.

Results

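The C-type lectin receptor genes of the mouse, named Clec, were described in lung RNA. Every row whose gene symbol is Clec followed by a number, letters and an optional number was taken, which gave 31 genes of 38349 in the gene table, with no repeated symbol. The lung libraries were 12 in number and fell into 4 groups of 3, all from wild-type mice: uninjured lung (Control), lung injured by hypoxia and LPS (ALI, acute lung injury), and injured lung after treatment labelled MSC or tpMSC. The labels do not spell out these 2 treatment names, and give no strain, age, dose or time. Nothing in them ties the replicates of a group to separate mice, and the p-values below therefore speak of variation among libraries, some of which may be technical. Although the family bears the name receptor, not every member is one: Clec3b and Clec11a are secreted proteins and Clec16a acts inside the cell.

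C-type lectin receptors share a carbohydrate-recognition fold, and on myeloid cells many of them bind microbial sugars, glycolipids or products of dying cells. Activating members signal through ITAM motifs, either their own or those of the adaptors Fcer1g and Tyrobp, by way of Syk and the Card9, Bcl10 and Malt1 complex to NF-kB, whereas inhibitory members carry ITIM motifs that recruit phosphatases such as Ptpn6. Other members serve uptake by dendritic cells, platelet activation, vessel growth, or the recognition of healthy cells by natural killer (NK) cells. In the lung, alveolar macrophages, recruited neutrophils and monocytes, dendritic cells and the large capillary endothelium each carry different members.

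The stretches before the transcription starts of Clec4e, Clec4d and Clec5a are shown because these members had the largest changes with injury among those with counts in every group. Each is 250 bases, 5′ to 3′ toward the gene, from RefSeq on GRCm38.p6: Clec4e at chr6:123289872-123290121 (minus strand), Clec4d at chr6:123261857-123262106 (plus strand) and Clec5a at chr6:40585806-40586055 (minus strand). Capitals mark matches, on either strand, to GAGGAA (a core of PU.1 sites) or TTNNGCAA (a core of C/EBP sites).
Clec4e: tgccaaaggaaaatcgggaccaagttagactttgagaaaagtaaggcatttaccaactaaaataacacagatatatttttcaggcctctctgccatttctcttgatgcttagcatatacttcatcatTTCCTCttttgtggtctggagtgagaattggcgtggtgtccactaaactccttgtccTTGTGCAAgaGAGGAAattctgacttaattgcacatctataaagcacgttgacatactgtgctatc
Clec4d: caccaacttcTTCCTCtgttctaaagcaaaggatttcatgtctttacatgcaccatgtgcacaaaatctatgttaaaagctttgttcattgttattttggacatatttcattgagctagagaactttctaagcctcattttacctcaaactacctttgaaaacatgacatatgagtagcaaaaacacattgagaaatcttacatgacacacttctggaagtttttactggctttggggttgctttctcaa
Clec5a: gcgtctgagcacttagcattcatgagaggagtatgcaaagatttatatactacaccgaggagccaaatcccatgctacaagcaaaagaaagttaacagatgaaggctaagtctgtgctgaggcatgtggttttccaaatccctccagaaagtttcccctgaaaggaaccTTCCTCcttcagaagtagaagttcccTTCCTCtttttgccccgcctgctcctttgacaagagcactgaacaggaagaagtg
Of the 31 genes, 25 had such a window and these held 28 windows. GAGGAA was in 15 of the 28 windows, of 14 genes, and in 23.3% of all 32851 windows. The 14 genes included Clec4e, Clec4d, Clec5a, Clec7a and Clec12a of myeloid cells, but also Clec14a of endothelium and Clec11a. TTNNGCAA was in windows of 4 genes (Clec4e, Clec12a, Clec11a and Clec16a) and in 9.56% of all windows. In Clec4e it lay 66 to 59 bases before the start, beside a GAGGAA at 56 to 51. GGGNNNNNCC, a core of NF-kB sites, was found in windows of 4 genes (Clec11a, Clec2g, Clec2l and Clec4a1) and in 45.8% of all windows, and TGANTCA of AP-1 in windows of 5 genes and 6.75% of all. The 3 printed windows hold no match to either. Both strands were searched, and no 2 matches overlap in the printed windows.

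Total counts ranged from 53083002 to 70209229 per library. Markers of lung epithelium and endothelium were present in every library. MSC replicate 3 stood apart on the second principal component of all genes, at 45.9 against -10.6 and -43.8 for the other MSC libraries. Its alveolar macrophage markers summed to 38.06 FPKM (fragments scaled by gene length and library depth) against 97.18 and 154.4. Of these sums Car4 alone made 29.27 FPKM in MSC replicate 3, against 70.23 and 72.97 in the other MSC libraries. Of the 31 genes, 27 had enough counts to test. The others were Clec18a, with no count in any library, and Clec2f, Clec2h and Clec2m, which had at most 15 counts in a library.

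Most tested members differed between injured and uninjured lung, in opposite directions by role. With edgeR's quasi-likelihood test and an adjusted p under 0.05, 17 of the 27 tested members (63%) differed between ALI and Control, against 39.8% of all 22915 genes tested. Of these, 10 were higher (20.2% of all genes were called higher) and 7 were lower (19.6% of all genes). The median log2 change of the members was -0.03, beside -0.022 over all genes. The members that rose were Clec4e, Clec4d, Clec5a, Clec12a, Clec4a1, Clec4a2, Clec4a3, Clec4a4, Clec2e and Clec4b2, and those that fell were Clec14a, Clec3b, Clec1a, Clec9a, Clec4g, Clec1b and Clec2d.

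The summed level of the family overlapped between Control and ALI, while its make-up differed. The 31 genes summed to 510.1 to 524 FPKM in Control and 495 to 578.2 in ALI. The sum was 327.7 to 509.9 in MSC and 380.7 to 444.3 in tpMSC, where every library was below all Control and ALI libraries. The 5 members listed as myeloid activating receptors (Clec4d, Clec4e, Clec4n, Clec5a and Clec7a) made 9.82 to 12.1% of the family's FPKM in Control and 49.9 to 50.6% in ALI. Clec4d and Clec4e alone went from 0.426 to 0.674% of the family to 36.6 to 39.1%. The 4 endothelial and platelet members made 32.4 to 34.4% in Control and 8.95 to 9.98% in ALI. In Control the leading members were Clec2d, Clec14a and Clec3b, with means of 130.7, 127.1 and 107.9 FPKM, and in ALI they were Clec4e, Clec4d and Clec2d, with 108.2, 90.81 and 87.9. In the shares of these roles the treated libraries lay between. Activating receptors were at 22.5 to 40.2% in MSC and 17.6 to 30.6% in tpMSC, and endothelial and platelet members at 12.2 to 24.1% and 13.4 to 20.2%. The share of the 8 Clec2 members did not all lie between. It was 25.3 to 26.5% in Control, 15.1 to 18.7% in ALI, 15.8 to 26.3% in MSC and 22.9 to 29.8% in tpMSC.

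**Figure D1:**
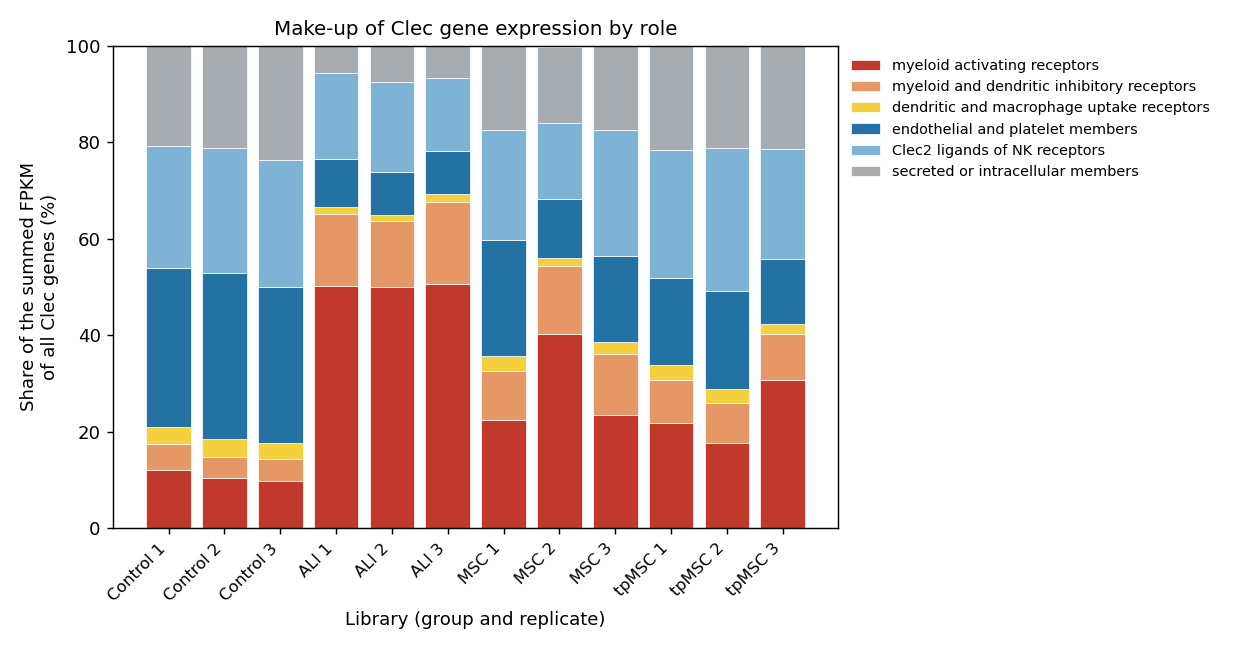
Share of the summed FPKM of the 31 Clec genes (vertical axis, %) taken by each role in each of the 12 libraries (horizontal axis, group and replicate). Activating receptors (red) take 9.82 to 12.1% in Control and 49.9 to 50.6% in ALI; MSC replicate 2, at 40.2%, is the highest of the treated libraries.

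The activating receptors Clec4e and Clec4d showed the largest rises among members with counts in every group, and Clec5a followed. Clec4e (Mincle) binds mycobacterial and fungal glycolipids and a ribonucleoprotein of dying cells, and signals through Fcer1g. Its level was 0.88, 0.61 and 0.44 FPKM in Control (replicates 1, 2 and 3 in order, as in all such lists here), 99.99, 117.72 and 106.75 in ALI, 18.81, 37.33 and 17.68 in MSC, and 7.88, 4.53 and 14.20 in tpMSC. No library of one group lay within the range of another: ALI was highest, then MSC, then tpMSC, then Control. The log2 change in ALI against Control was 7.43 ± 0.51 (SE, 173-fold, adjusted p 1.9e-06). Each SE here is derived from the test, as the absolute log2 change divided by the square root of its F statistic.

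Clec4d, which forms a complex with Clec4e and is encoded beside it, followed the same order of groups. It stood at 2.56, 2.88 and 1.79 FPKM in Control, 81.21, 108.17 and 83.05 in ALI, 23.24, 51.39 and 22.83 in MSC, and 17.05, 12.56 and 19.26 in tpMSC. The groups did not overlap, and the log2 change with injury was 5.29 ± 0.36 (39.1-fold, adjusted p 1.67e-06). The order of the pair reversed: Clec4d was at 291 to 472% of Clec4e per length in Control and at 77.8 to 91.9% in ALI, with 124 to 138% in MSC and 136 to 277% in tpMSC.

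Clec5a, which signals through Tyrobp, stood at 1.15, 0.88 and 1.11 FPKM in Control and 14.61, 15.41 and 16.78 in ALI. Its MSC values were 6.72, 12.58 and 5.76, and its tpMSC values 4.02, 2.96 and 7.36. The 2 treated groups overlap each other but neither overlaps ALI or Control. Its log2 change with injury was 3.95 ± 0.37 (15.5-fold, adjusted p 1.16e-05).

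The remaining 2 of the 5 members listed as myeloid activating receptors did not pass the test. Clec4n (Dectin-2), a receptor for fungal mannans, had 19.37, 18.42 and 16.49 FPKM in Control and 26.01, 25.95 and 25.35 in ALI (log2 change 0.57 ± 0.42, adjusted p 0.316). Clec7a (Dectin-1), the beta-glucan receptor, had 37.69, 31.34 and 31.64 in Control and 26.15, 21.50 and 24.20 in ALI (-0.43 ± 0.34, adjusted p 0.348). For both, Control and ALI did not overlap, and the treated libraries spread widely: Clec4n was 21.37, 44.80 and 8.24 in MSC and 29.31, 19.78 and 34.05 in tpMSC, and Clec7a was 30.15, 59.13 and 22.37 in MSC and 33.84, 27.10 and 61.02 in tpMSC. A fit of the 6 Control and ALI libraries alone called both, Clec4n higher (0.58, adjusted p 0.00045) and Clec7a lower (-0.42, adjusted p 0.00772).

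All 10 listed neutrophil markers rose in ALI, and their sum went from 150.2 to 238.5 FPKM in Control to 3769 to 4256 in ALI, 511.2 to 989.6 in MSC and 515.8 to 627.6 in tpMSC. In bulk lung RNA, more cells of a type and more RNA per cell cannot be told apart. S100a9 made most of the neutrophil sum, at 76.98 to 145.15 FPKM in Control and 2394.3 to 2692.27 in ALI, and weighs on shares of it. Shares against single neutrophil markers were not computed. Set against the neutrophil sum, Clec5a was at 0.482 to 0.739% in Control and 0.362 to 0.445% in ALI. Clec4e was at 0.293 to 0.369% in Control and 2.52 to 2.83% in ALI, and Clec4d at 1.07 to 1.67% and 2.04 to 2.54%. Of 7 alveolar macrophage markers, 6 fell in ALI, and their sum went from 143.2 to 155.4 FPKM to 30.68 to 36.29. Car4 was the largest part of it, at 69.78 to 77.97 FPKM in Control and 23.67 to 28.32 in ALI. Ear1 fell further, from 29.44 to 37.71 FPKM to 1.46 to 2.49, as did Krt79, from 2.19 to 3.92 to 0.02 to 0.05. Relative to the marker sum, which Car4 weighs on, Clec7a was at 20.2 to 24.4% in Control and 59.2 to 85.2% in ALI. Clec4n was at 11.5 to 12.5% and 71.5 to 84.8%. The part of either cell type in these results was not tested.

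**Figure D2:**
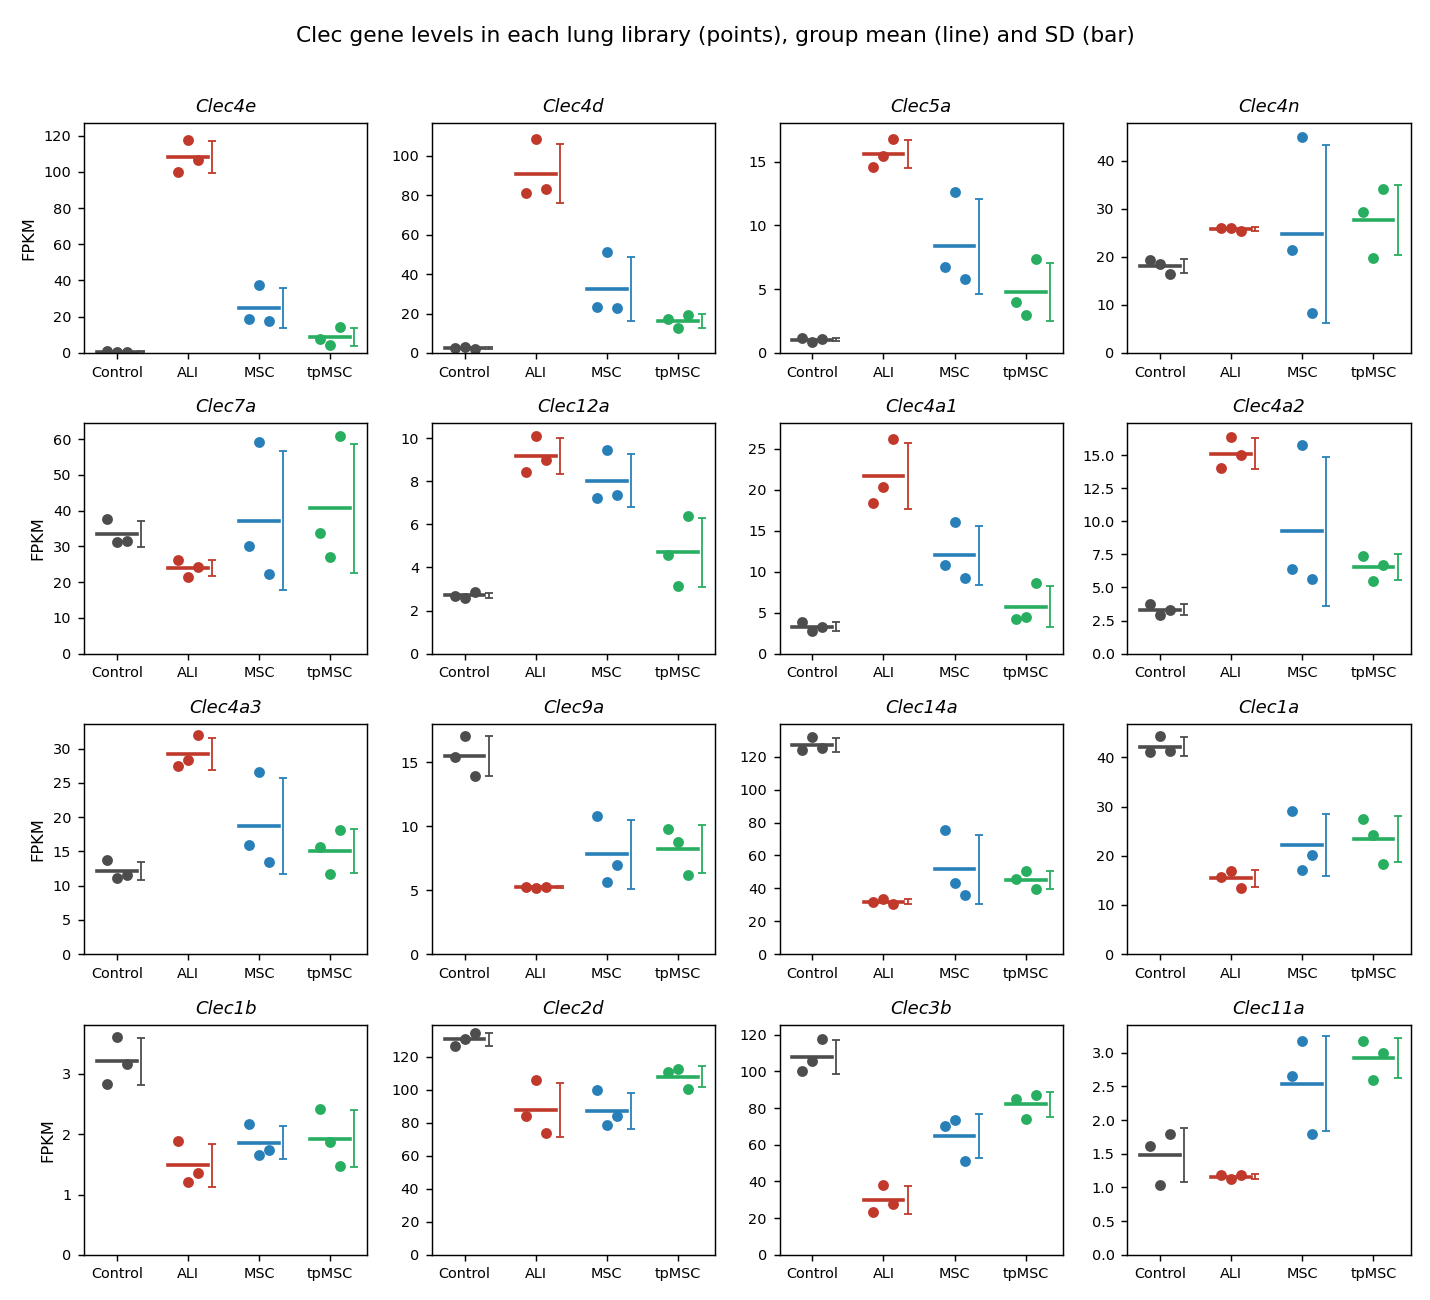
Level in FPKM (vertical axes, linear from 0) of 16 Clec genes in the Control, ALI, MSC and tpMSC groups (horizontal axes); points are libraries, lines group means and bars SD, n = 3. Clec4e and Clec4d are far higher in ALI than in any other group, while Clec14a, Clec1a and Clec9a are highest in Control.

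The inhibitory receptors and their close relatives also rose: 5 of 6 were called higher in ALI and none lower, with a median log2 change of 2.03. Clec4a4 (DCIR2), an ITIM-bearing dendritic cell receptor, was low, at 0.14, 0.10 and 0.14 FPKM in Control, 1.05, 1.16 and 1.28 in ALI, 0.70, 1.01 and 0.59 in MSC, and 0.37, 0.30 and 0.35 in tpMSC. The 4 groups did not overlap, in the same order as for Clec4e, and the change with injury was 3.22 ± 0.35 (adjusted p 2.84e-05). Since 12.68% of its 75-base stretches also occur in other genes, most in Clec4a2, the split of reads between these neighbours is uncertain.

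Clec4a1 (DCIR4) stood at 3.84, 2.79 and 3.27 FPKM in Control, 18.40, 20.39 and 26.25 in ALI, 10.77, 16.05 and 9.18 in MSC, and 4.25, 4.41 and 8.58 in tpMSC. Again the groups did not overlap, and the change with injury was 2.78 ± 0.30 (adjusted p 2.99e-05). Its neighbour Clec4a3 (DCIR3), the most abundant of the 6, was at 13.68, 11.19 and 11.57 in Control, 27.41, 28.32 and 31.92 in ALI, 15.97, 26.63 and 13.52 in MSC, and 15.58, 11.71 and 18.06 in tpMSC. It rose by 1.33 ± 0.23 (adjusted p 0.000693), and its treated and Control ranges overlap. Per length, Clec4a1 was at 24.9 to 28.3% of Clec4a3 in Control and 67.1 to 82.2% in ALI.

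Clec4a2 (DCIR1), which carries an ITIM, was at 3.78, 2.88 and 3.33 FPKM in Control, 13.99, 16.33 and 15.01 in ALI, 6.37, 15.73 and 5.66 in MSC, and 7.41, 5.50 and 6.70 in tpMSC. One MSC library, replicate 2, lay within the ALI range. The change with injury was 2.24 ± 0.32 (adjusted p 0.000206). Clec12a, an ITIM receptor for uric acid crystals on myeloid cells, was at 2.68, 2.58 and 2.84 in Control, 8.43, 10.09 and 9.00 in ALI, 7.24, 9.46 and 7.38 in MSC, and 4.58, 3.13 and 6.37 in tpMSC. It rose by 1.82 ± 0.21 (adjusted p 4.34e-05), and its MSC values overlap ALI whereas its tpMSC values do not. Clec12b, another ITIM receptor, was at 2.81, 2.92 and 2.79 in Control, 4.89, 2.96 and 3.30 in ALI, 3.95, 3.27 and 4.55 in MSC, and 6.23, 6.75 and 2.88 in tpMSC. Its change with injury was 0.45 ± 0.28 (adjusted p 0.235).

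Monocyte and interstitial macrophage markers moved with this group. Of 6 monocyte markers 5 rose in ALI, with a sum of 48.59 to 63.59 FPKM in Control and 490.4 to 547.5 in ALI. Most of that rise was Cd14 (log2 change 5.38), while F13a1 (2.28), Ccr2 (1.42) and Ms4a4c (1.23) rose less and Ly6c2 did not pass (0.73, adjusted p 0.14). All 6 interstitial macrophage markers rose, their sum going from 196.5 to 220.4 FPKM to 571 to 713.9. Their part in the rise was not tested.

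Among the dendritic and macrophage uptake receptors, Clec9a fell and the others were low throughout. Clec9a (DNGR-1) marks type 1 conventional dendritic cells (cDC1), where it binds exposed actin of dead cells. Its values were 15.43, 17.05 and 13.95 FPKM in Control, 5.28, 5.19 and 5.27 in ALI, 10.84, 5.64 and 6.94 in MSC, and 9.80, 8.74 and 6.17 in tpMSC. All treated libraries lay between the ALI and Control ranges. It fell by 1.50 ± 0.21 on the log2 scale (adjusted p 0.0002).

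Most other cDC1 markers did not pass the test. Of 7 listed markers only Cadm1 was called lower (-1.22, adjusted p 9.5e-05), and none was called higher: Xcr1 changed by -0.27 (adjusted p 0.632), Batf3 by 0.39 (adjusted p 0.481), Wdfy4 by 0.15 (adjusted p 0.529) and Irf8 by 0.38 (adjusted p 0.267). None of the 7 was at 0 in all libraries. The 7 summed to 39.22 to 42.32 FPKM in Control and 29.35 to 32.18 in ALI. Within that sum Cadm1 went from 19.06 to 20.29 FPKM to 7.45 to 8.66. Xcr1 and Batf3 were low, at 0.64 to 0.79 and 0.56 to 0.64 FPKM in Control, beside 13.95 to 17.05 for Clec9a. Clec9a was at 33 to 40.9% of the sum in Control and 16.4 to 17.7% in ALI, a share that Cadm1 weighs on. Relative to its neighbour Clec1a, a gene of endothelium, Clec9a stayed at 30.5 to 39.2% in all 12 libraries. The part of cDC1 numbers in the fall of Clec9a was not tested, nor was whether reads of a neighbour were counted to it.

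Clec4b1, listed here with the dendritic and macrophage uptake receptors although it pairs with Fcer1g as activating receptors do, was at 1.95, 2.10 and 1.78 FPKM in Control, 1.12, 1.44 and 1.74 in ALI, 0.92, 0.90 and 0.97 in MSC, and 2.04, 1.01 and 1.33 in tpMSC. Its change with injury was -0.36 ± 0.27 (adjusted p 0.318). Its neighbour Clec4b2 had no count in the 3 Control libraries and 22, 16 and 11 in ALI, 49 in all. Against a floor of 3 counts over the Control group this was at least 17.8-fold higher, and its call (adjusted p 0.0241) was lost without any 1 Control library or without ALI replicate 1. Clec10a, a macrophage galactose lectin with sequence shared with Mgl2 over 4.44% of its 75-base stretches, ranged from 0.33 to 1.75 FPKM over all groups and did not pass in any of the 6 comparisons over the 12 libraries with edgeR. It passed in MSC against Control without MSC replicate 3, in tpMSC against Control in the fit of those 6 libraries, and in tpMSC against ALI with DESeq2.

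All 4 endothelial and platelet members fell in ALI, with a median log2 change of -1.66. Clec14a, an endothelial receptor for the matrix protein Mmrn2 with a part in vessel growth, was among the highest of the family in Control. It stood at 124.23, 131.79 and 125.24 FPKM in Control, 31.66, 33.57 and 30.38 in ALI, 75.61, 43.17 and 35.81 in MSC, and 45.67, 50.41 and 39.36 in tpMSC. It fell by 1.93 ± 0.21 (3.82-fold, adjusted p 3.52e-05). Every treated library was above all ALI libraries and below all Control libraries.

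Clec1a, a receptor for fungal melanin on endothelium, stood at 41.00, 44.31 and 41.21 FPKM in Control, 15.74, 16.99 and 13.43 in ALI, 29.13, 17.18 and 20.20 in MSC, and 27.54, 24.19 and 18.32 in tpMSC. It fell by 1.39 ± 0.18 (adjusted p 0.000115), and the treated groups overlap each other only. Clec1b (CLEC-2), the platelet receptor for podoplanin, was at 2.84, 3.62 and 3.16 in Control, 1.89, 1.21 and 1.36 in ALI, 2.17, 1.66 and 1.74 in MSC, and 2.42, 1.87 and 1.48 in tpMSC. It fell by 1.05 ± 0.20 (adjusted p 0.00146), with treated values that overlap ALI and not Control. Clec4g (LSECtin), known from sinusoidal endothelium of liver and lymph node, was at 0.36 to 0.40 FPKM in Control, 0.06 to 0.10 in ALI, 0.11 to 0.37 in MSC and 0.25 to 0.32 in tpMSC. It rested on 9 to 75 counts per library and fell by 2.11 ± 0.41 (adjusted p 0.00157). Exons of Clec4g overlap those of the opposite-strand gene Gm16553 over 5.93% of their bases.

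Endothelial markers fell too. Of 10 listed markers 8 fell in ALI, with a median log2 change of -0.82 over the 10, and their sum went from 909.9 to 920.1 FPKM to 466.9 to 517.5. Clec14a was at 13.7 to 14.3% of that sum in Control, 5.87 to 7.19% in ALI, 6.52 to 10.9% in MSC and 5.53 to 6.52% in tpMSC, so its share in tpMSC lay within or below the ALI range although the sum itself was 700.2 to 785.5 FPKM. Clec1a was at 4.51 to 4.82% of the sum in Control and 2.6 to 3.64% in ALI. For Clec1b the 9 platelet and megakaryocyte markers were divided: Ppbp (-1.41), Tubb1 (-1.31), Treml1 (-1.29) and Itga2b (-0.80) fell and Pf4, which macrophages can also make, rose (2.35). Clec1b was at 13.1 to 16.3% of their sum in Control and 3.02 to 4.28% in ALI, a share that Pf4 weighs on. None of these 19 markers was at 0 in all libraries, and the part of cell numbers in these falls was not tested.

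**Figure D3:**
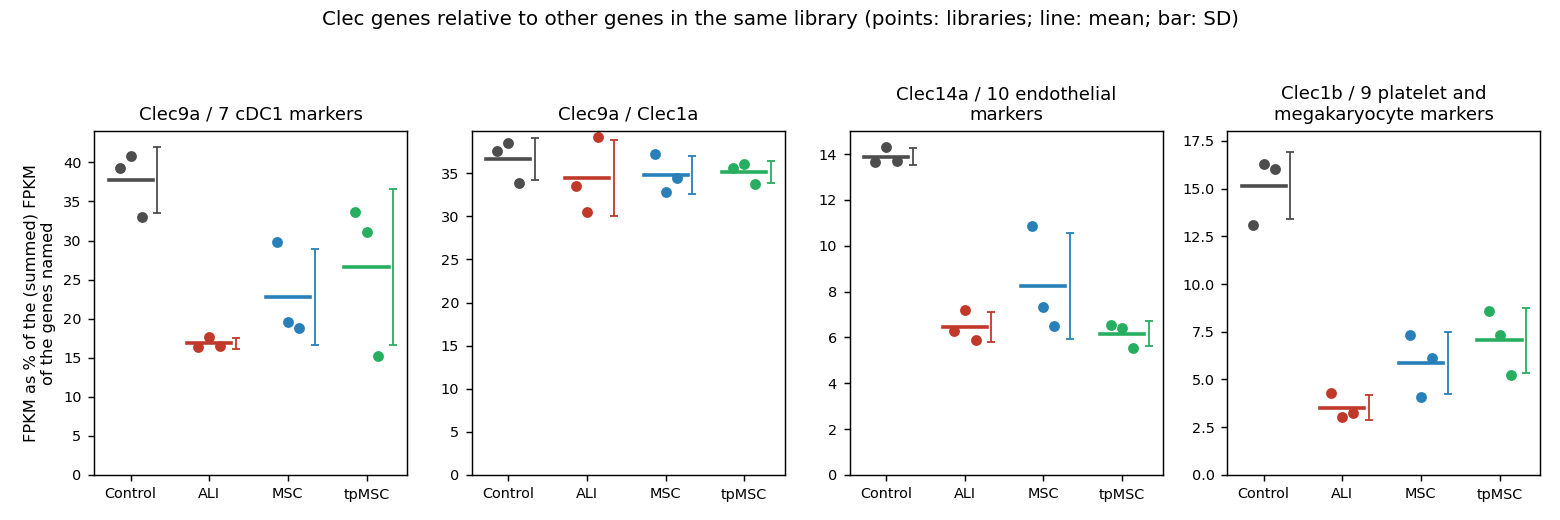
Level of a Clec gene as % of the summed FPKM of the genes named above each panel (vertical axes, from 0) in the 4 groups (horizontal axes); points are libraries, lines means and bars SD, n = 3. Clec9a falls relative to the cDC1 markers, from 33 to 40.9% in Control to 16.4 to 17.7% in ALI, while Clec9a relative to Clec1a stays at 30.5 to 39.2% in all 12 libraries.

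Of the 8 Clec2 members, which are ligands of NK cell receptors or their relatives, 5 could be tested. Clec2d (Clr-b), a ligand by which cells engage the inhibitory receptor Klrb1b, was the most abundant member in Control. It stood at 126.64, 131.06 and 134.40 FPKM in Control, 84.28, 105.78 and 73.64 in ALI, 99.66, 78.74 and 84.01 in MSC, and 111.01, 112.45 and 100.64 in tpMSC. It fell by 0.51 ± 0.12 with injury (1.42-fold, adjusted p 0.00587), and only the Control range is free of overlap with the other groups. Clec2i (Clr-g), another ligand of this receptor family, was at 2.34, 4.03 and 4.02 in Control, 2.63, 2.23 and 2.09 in ALI, 2.23, 1.39 and 1.83 in MSC, and 1.28, 0.84 and 1.14 in tpMSC. Its change with injury was -0.52 ± 0.24 (adjusted p 0.105), while tpMSC lay below all other groups. Clec2e rose by 1.83 ± 0.64 (adjusted p 0.0394) on 10 to 18 counts per Control library and 30 to 51 per ALI library. That call was lost without any 1 of the 6 libraries, with no filter on low counts and with the replicate block. Clec2g and Clec2l, with at most 31 counts in a library, did not pass. All 6 NK cell markers fell in ALI, from a sum of 46.62 to 75.13 FPKM to 13.36 to 32.55, and their part here was not tested.

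Among the secreted and intracellular members Clec3b (tetranectin), which binds plasminogen, moved most. It was at 100.06, 105.72 and 117.85 FPKM in Control, 23.53, 38.21 and 27.85 in ALI, 70.31, 73.41 and 51.29 in MSC, and 84.76, 74.18 and 87.16 in tpMSC. The 4 groups did not overlap, in the order Control, tpMSC, MSC and ALI, which is the reverse of the order of Clec4e. Clec3b fell by 1.79 ± 0.18 (3.46-fold, adjusted p 1.6e-05). The 6 listed fibroblast markers went both ways, with a median log2 change of 0.31: Inmt (-2.62) and Tcf21 (-1.58) fell, Dcn (0.84) and Col1a2 (0.56) rose, and Col1a1 and Pdgfra did not pass. The part of fibroblasts in the fall of Clec3b was not tested.

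Clec11a, a growth factor of haematopoietic and skeletal progenitors, was at 1.62, 1.03 and 1.80 FPKM in Control and 1.18, 1.12 and 1.18 in ALI (log2 change -0.29 ± 0.23, adjusted p 0.343). In the treated groups it was at 2.65, 3.18 and 1.79 (MSC) and 3.17, 2.59 and 2.99 (tpMSC). Clec16a, a regulator of autophagy, was at 3.53 to 4.64 FPKM in the 12 libraries and passed in none of the 6 comparisons.

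Along the genome, 24 of the 31 members lie on chromosome 6, and the direction of change differed between its 2 dense stretches. In the first, 9 members from Clec4a1 to Clec4e span 368 kb (122921848 to 123289870 on GRCm38), and 7 of the 9 rose with injury and none fell. Over all genes tested, 20.2% were called higher and 19.6% lower. Clec4b2, among the 7, lost its call without any 1 Control library. In the second, 13 members from Clec2h to Clec7a span 810 kb (128662385 to 129472779). Of 10 tested there, 2 rose, near the share of all genes, and 4 fell. Clec2e, among the 2, lost its call without any 1 Control or ALI library. The neighbours Clec12a and Clec12b, at 129342691 and 129375515, lie just before Clec1b, Clec9a and Clec1a, and Clec12a rose while those 3 adjacent genes fell. Position and cell use of the members cannot be told apart in this division.

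**Figure D4:**
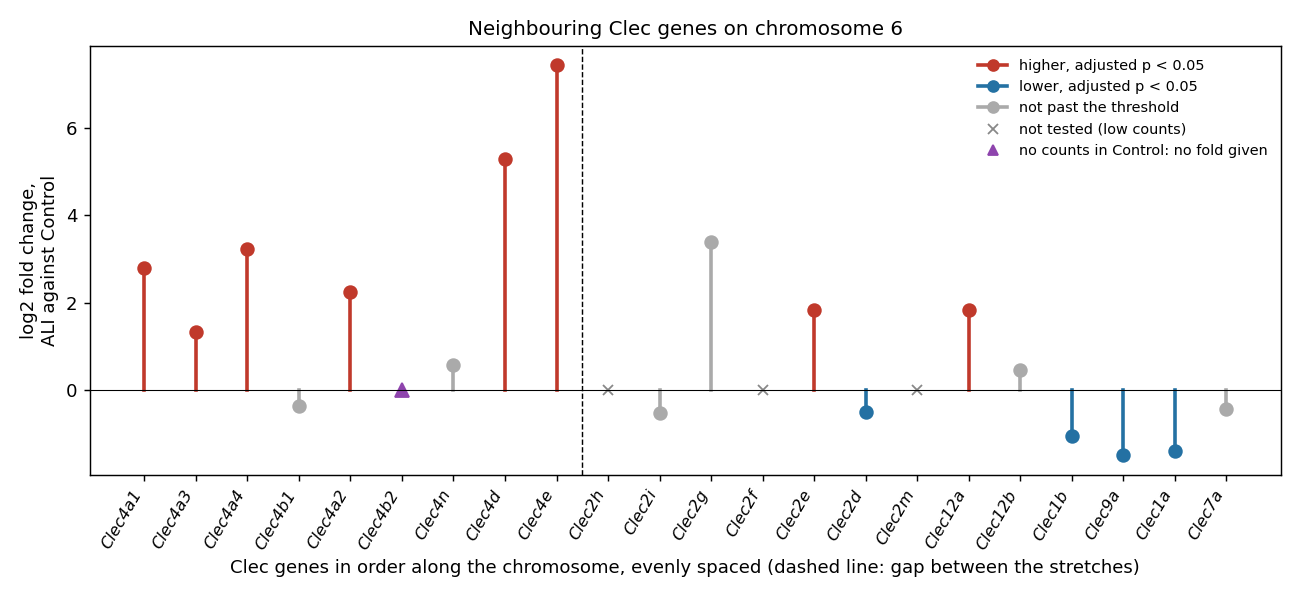
The 22 Clec genes of the 2 stretches in their order along chromosome 6, evenly spaced (horizontal axis), with the log2 fold change of ALI against Control (vertical axis); crosses are Clec2h, Clec2f and Clec2m, which were not tested. In the Clec4 stretch on the left 7 of 9 members are called higher, beside 20.2% of all genes. Clec4b2 is among them (triangle on the zero line, as no fold is given without counts in Control). On the right Clec1b, Clec9a and Clec1a are lower.

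Against injured lung, both treated groups had lower Clec4e and Clec4d and higher Clec3b, Clec11a and Clec4g. Clec5a and 5 of 6 inhibitory members were called lower in tpMSC only, although their log2 changes in MSC were negative as well. The 2 comparisons share the ALI libraries with each other and with the one above, so their values are given side by side and not as independent results. In MSC against ALI, 5 of 27 members were called (18.5%, against 10.2% of all genes), 3 higher (5.03% of all genes) and 2 lower (5.21%). In tpMSC against ALI, 13 of 27 were called (48.1%, against 23.1% of all genes), 4 higher (11.6%) and 9 lower (11.5%). Without MSC replicate 3, the library that stood apart, 6 members were called in MSC against ALI, 18 in MSC against Control and 0 in tpMSC against MSC.

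Clec4e changed by -2.19 ± 0.40 in MSC against ALI (adjusted p 0.00592) and by -3.63 ± 0.42 in tpMSC against ALI (adjusted p 0.000192). For Clec4d the 2 values were -1.53 ± 0.30 (adjusted p 0.00872) and -2.50 ± 0.31 (adjusted p 0.00027). These were the 2 activating receptors called lower in both. Clec5a changed by -0.95 in MSC (adjusted p 0.089) and by -1.73 in tpMSC (adjusted p 0.00328).

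Inhibitory relatives passed in tpMSC and not in MSC against ALI. In tpMSC the falls were 1.94 for Clec4a1 (adjusted p 0.000807), 1.77 for Clec4a4 (adjusted p 0.00225), 1.23 for Clec4a2 (adjusted p 0.0141, but 0.0633 without tpMSC replicate 2), 0.99 for Clec12a (adjusted p 0.00481) and 0.97 for Clec4a3 (adjusted p 0.00909), and Clec2i fell by 1.12 (adjusted p 0.00637). In MSC the values for Clec4a1, Clec4a4, Clec4a2, Clec12a and Clec4a3 were -0.90, -0.64, -0.76, -0.24 and -0.69, with adjusted p from 0.0653 to 0.519. MSC replicate 2, which had the highest Clec4e, Clec4d, Clec5a, Clec4n and Clec7a of the MSC libraries, weighed on these: without it 11 members were called in MSC against ALI, Clec4a1, Clec4a2, Clec4a3 and Clec5a among them. Without ALI replicate 1 the count was 3.

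Clec3b, Clec11a and Clec4g were higher than in ALI. Clec3b rose by 1.07 ± 0.17 in MSC (adjusted p 0.0032) and by 1.43 ± 0.17 in tpMSC (adjusted p 0.000239). Clec11a rose by 1.08 ± 0.23 in MSC (adjusted p 0.0131, but 0.0511 without ALI replicate 1) and by 1.3 ± 0.23 in tpMSC (adjusted p 0.0021). Clec4g rose by 1.60 in MSC (adjusted p 0.0297) and by 1.74 in tpMSC (adjusted p 0.00986). The Clec4g call in MSC was lost with limma, with the replicate block and in the fit of the 6 libraries. It was also lost without MSC replicate 1 or 2 and without any 1 ALI library. Clec1a rose by 0.57 in tpMSC (adjusted p 0.0394, lost with no filter on low counts and without ALI replicate 1 or 3 or tpMSC replicate 1 or 2). Clec14a, at 0.64 in MSC (adjusted p 0.0757) and 0.48 in tpMSC (adjusted p 0.124), and Clec9a, at 0.52 (adjusted p 0.149) and 0.62 (adjusted p 0.0527), did not pass. Of the listed markers, 8 of 10 neutrophil genes fell in MSC and 9 in tpMSC against ALI, 3 and 6 of 7 alveolar macrophage genes rose, and 3 and 9 of 10 endothelial genes rose. Lower too, in MSC and tpMSC in that order, were 2 and 4 of 6 monocyte genes, 1 and 6 of 6 interstitial macrophage genes, and 0 and 5 of 5 B cell genes. Their part in these changes was not tested.

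**Figure D5:**
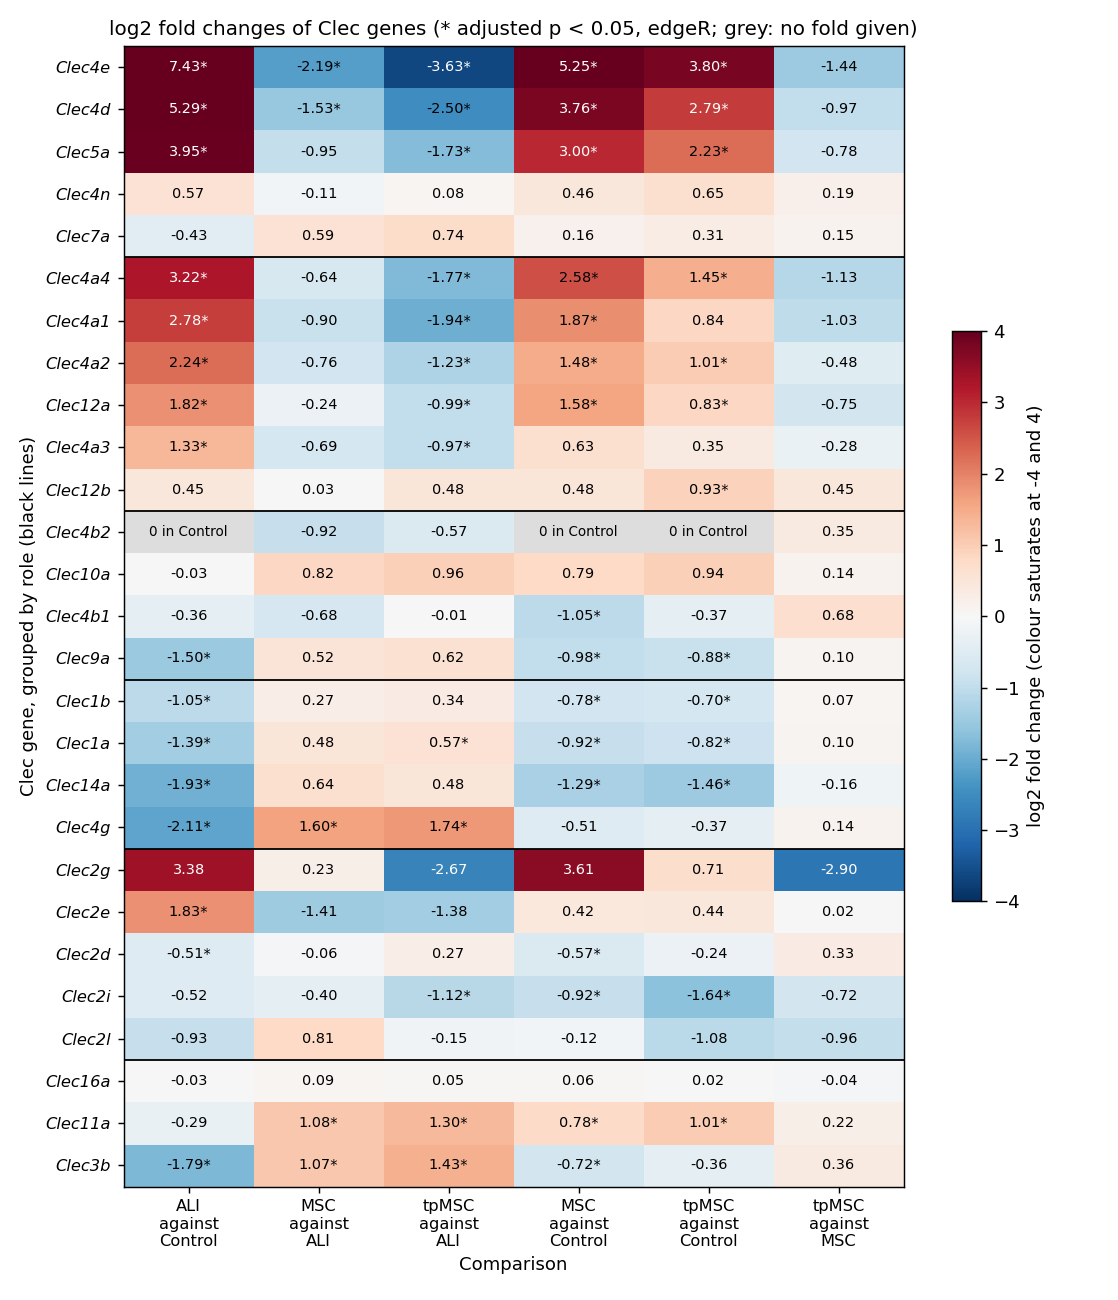
log2 fold changes of the 27 tested Clec genes (rows, by role) in 6 comparisons (columns), with an asterisk where edgeR's adjusted p is under 0.05; grey cells mark a gene without counts in Control. Clec4e reads 7.43 in ALI against Control, -2.19 in MSC against ALI and -3.63 in tpMSC against ALI, and the last column, tpMSC against MSC, holds no asterisk.

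Treated lung still differed from Control in much of the family. In MSC against Control 16 of 27 members were called (59.3%, against 18.7% of all genes), 8 higher (10.7% of all genes) and 8 lower (8%). In tpMSC against Control 13 were called (48.1%, against 15.9% of all genes), 8 higher (9.1%) and 5 lower (6.79%), a count that was 8 without Control replicate 1 and 7 without Control replicate 2. Clec4e remained 38-fold above Control in MSC (log2 5.25 ± 0.47, adjusted p 7.16e-05) and 14-fold in tpMSC (3.80 ± 0.44, adjusted p 0.000614). Clec4d remained above by 3.76 and 2.79 (adjusted p 7.16e-05 and 0.00062), and Clec5a by 3.00 and 2.23 (adjusted p 0.00039 and 0.00228). Below Control were Clec14a, by -1.29 and -1.46 (adjusted p 0.00193 and 0.00165), Clec1a, by -0.92 and -0.82 (adjusted p 0.00542 and 0.0118), and Clec9a, by -0.98 and -0.88 (adjusted p 0.00819 and 0.017, the second lost without Control replicate 1 or 2 or tpMSC replicate 3). Clec3b passed in MSC (-0.72, adjusted p 0.0137, lost without Control replicate 3) and not in tpMSC (-0.36, adjusted p 0.182). Against Control, 8 of 10 neutrophil markers were higher in MSC and 7 in tpMSC, 6 and 5 of 6 interstitial macrophage markers were higher, and 8 and 4 of 10 endothelial markers were lower (1 was higher in tpMSC). Their part in these differences was not tested.

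Another 4 members, not called in ALI against Control, were called in treated lung against Control. Clec11a was higher in MSC (0.78, adjusted p 0.0329) and in tpMSC (1.01, adjusted p 0.0129). Its call in MSC was lost in the fit of the 6 libraries, with the replicate block and without Control replicate 1 or 2 or MSC replicate 1 or 2. Clec2i was lower in MSC (-0.92, adjusted p 0.0204) and in tpMSC (-1.64, adjusted p 0.00188). The Clec2i call in MSC was lost in the fit of the 6 libraries and without Control replicate 2 or 3 or MSC replicate 2. Clec4b1 was lower in MSC (-1.05, adjusted p 0.0211, lost without Control replicate 1 or 2 or MSC replicate 2), and Clec12b higher in tpMSC (0.93, adjusted p 0.0457). The Clec12b call was lost with limma, with no filter on low counts, with the replicate block and in the fit of the 6 libraries. It was also lost without any 1 of the 3 Control libraries or tpMSC replicate 1 or 2, and its tpMSC and Control ranges overlap.

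Between the treatments, no member passed in tpMSC against MSC with edgeR, where 0.0305% of all genes were called. At an unadjusted p under 0.05 there were 9 members, 7 of them lower in tpMSC. The share of all genes at that unadjusted level was not computed, so this count is not read as an excess. The lowest adjusted p were those of Clec4e (-1.44 ± 0.39, adjusted p 0.172), Clec12a (-0.75 ± 0.20, adjusted p 0.172) and Clec4a1 (-1.03 ± 0.29, adjusted p 0.173). DESeq2 called 2, Clec12a (-0.76, adjusted p 0.0159) and Clec4a1 (-1.04, adjusted p 0.0128), and limma on log2 FPKM called 0. Without tpMSC replicate 3, edgeR called Clec12a, Clec4a1 and Clec4e, with adjusted p of 0.0147, 0.0188 and 0.0303. The shares of all genes called in these alternative fits are not given here. A call in tpMSC against ALI that is missing in MSC against ALI is therefore not shown to differ between the treatments.

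Among 24 genes that signal below these receptors 18 rose in ALI (20.2% of all genes tested did) and 1, Cblb, fell (-0.30, 19.6% of all genes), with a median log2 change of 0.73. Malt1 rose by 3.16 (adjusted p 7.22e-06), Bcl10 by 1.17 (adjusted p 2.68e-06) and the adaptor Tyrobp by 1.52 (adjusted p 9.35e-06). Against ALI, 14 of 24 fell in MSC (5.21% of all genes) and 17 in tpMSC (11.5% of all genes) and none rose, with medians of -0.56 and -0.68. Many of these genes are expressed widely among leukocytes, and the part of cell numbers was not tested.

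Of 8 tested partners and ligands, 2 rose and 4 fell with injury, beside 20.2% and 19.6% of all genes. Pdpn, the podoplanin bound by Clec1b, rose by 1.06 (adjusted p 1.34e-05), opposite to its receptor. Mmrn2, the partner of Clec14a, fell by 0.67 (adjusted p 0.00199), and Klrb1a, an NK cell receptor, by 2.22 (adjusted p 0.000498). Against ALI, Pdpn fell by 0.48 in MSC (adjusted p 0.0121) and by 0.60 in tpMSC (adjusted p 0.00153). Among 41 tested genes with a C-type lectin domain but another name, 11 rose and 14 fell in ALI, where 20.2% of all genes rose and 19.6% fell. The lowest p were those of endothelial Thbd (thrombomodulin, -1.40), the collagen receptor Mrc2 (-0.99) and Pla2r1 (-1.42), all lower. In tpMSC against ALI, Thbd rose by 1.39, Mrc2 by 1.29 and Pla2r1 by 1.00.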

How the data were processed

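Poly(A) RNA of 12 mouse lung libraries was sequenced with a strand-marking dUTP protocol, per the labels' protocols. Tools named in the submitters' processing notes are StringTie 1.3.4d, HISAT2 2.0.4 and cutadapt 1.9, with the build GRCm38; whether counting used strand is not given in the sources used here. Raw counts and FPKM per gene were deposited in 1 table, and both were used. Positions come from GENCODE M21 on GRCm38, matched by Ensembl ID (31 of 31 members), since the file's own positions were those of GENCODE for 628 of 35571 genes.

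Counts were tested with edgeR 4.0.16 (filterByExpr, TMM, quasi-likelihood test, 1 mean per group over all 12 libraries, Benjamini-Hochberg adjustment over 22915 genes, threshold 0.05); printed levels are the deposited FPKM. The test was also run on data simulated from the means and spread of that fit, with an outcome not reported here. Alternatives were DESeq2 1.42.0, limma 3.58.1 on log2(FPKM + 1) and log2(FPKM + 0.1), RLE scaling, other filters, a replicate block, the 6 libraries compared, and leaving out each library. Values in every library are given for members called in 1 comparison or more whose mean reached 1 FPKM in a group, and of the lists the 3 genes of smallest p. Members, roles and lists were chosen with earlier results of these data known. Promoter windows are RefSeq's on GRCm38.p6. A floor of 3 counts over a group bounds folds against no counts, and covers counting error only.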

Additional observations from a re-analysis of the deposited data

How the results depend on the processing

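No call of a member changed direction under any alternative run. Direction was not compared where neither fit called the member. Of 64 calls of members over the 6 comparisons, 47 held in all 14 alternatives. The number of members called with each library left out in turn was 15 to 16 in ALI against Control (17 with all libraries), 3 to 11 in MSC against ALI (5), 11 to 15 in tpMSC against ALI (13), 0 to 3 in tpMSC against MSC (0), 12 to 18 in MSC against Control (16) and 7 to 12 in tpMSC against Control (13). DESeq2 called 8 members in MSC against ALI and 2 in tpMSC against MSC. For the alternatives, the share of all genes called is not given here, so these counts describe the members only. Libraries of the same replicate number showed no strong shared deviation (correlations from -0.164 to 0.136 over 18 pairs). With 3 libraries a group this cannot exclude pairing, on which the labels are silent. With the replicate block 16 members were called in ALI against Control, 4 in MSC against ALI and 14 in tpMSC against ALI. In tpMSC against MSC it called 0, in MSC against Control 15 and in tpMSC against Control 11. Low counts limit Clec4b2, Clec2e, Clec2g and Clec2l, and 3 libraries a group limit the rest.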

Other observations

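Clec9a and Clec1a kept a nearly fixed proportion across the study, a pattern picked out after the values were seen. Clec9a, a gene of cDC1, was at 37.6, 38.5 and 33.9% of the level of Clec1a, a gene of endothelium, in Control, at 33.5, 30.5 and 39.2% in ALI, at 37.2, 32.8 and 34.4% in MSC and at 35.6, 36.1 and 33.7% in tpMSC. The SD of the log2 ratio over the 12 libraries was 0.106, the smallest of 120 pairs among 16 members with at least 1 FPKM in every library. Ranked by this SD among 12773 genes at or above that level, Clec1a was the nearest gene to Clec9a (rank 1), and Clec9a the nearest to Clec1a; the median SD against Clec9a was 0.644. The next genes were Cbx7 (0.127), Tmem204 (0.133), Hdac11 (0.135) and Fendrr (0.135). The endothelial genes Erg, Tek, Kdr and Pecam1 were at 0.223, 0.238, 0.300 and 0.468, and the cDC1 genes Cadm1, Tlr3, Wdfy4 and Irf8 were at 0.246, 0.651, 0.725 and 0.850. On GRCm38 Clec9a ends at 129424763 of chromosome 6 on the plus strand and Clec1a ends at 129424772 on the minus strand, so the genes meet tail to tail. Clec9a also shares 5.59% of its exon bases with Clec1b on the same strand. The points share libraries and depth, and whether reads of one gene were counted to another was not tested.

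Within other neighbouring pairs the proportion did move. Clec12a was at 88.4 to 102% of Clec12b in Control, 172 to 341% in ALI, 162 to 289% in MSC and 46.4 to 221% in tpMSC.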
